A study of Mus musculus with 2 samples.

Results

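The genes described here encode the MHC class I molecule and the machinery that supplies it with peptides, in B16 F10, a pigmented mouse melanoma cell line. There are 10 of them, named by symbol: H2-K1, H2-D1, B2m, Tap1, Tap2, Tapbp, Psmb8, Psmb9, Psmb10 and Nlrc5. All 10 were found once each among the 32285 genes of the count matrix. Per the labels, cells were seeded at 100 cells per cm2, grown for 7 days in serum-supplemented DMEM, detached with trypsin, and split by flow cytometry on their side scatter. Cells of low scatter form the low pigment sample and cells of high scatter the high pigment sample. No genetic change or added agent is named for either sample, and side scatter was the only measure of pigment.

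Each sample gave 1 single-cell library, so no difference below has a replicate check and no test between the samples was possible. The low pigment library held 1900 cells and 32437194 unique molecular identifiers (UMIs, each marking 1 captured RNA molecule), and the high pigment library 2136 cells with 28848691 UMIs. Levels are CPM (counts per 1e6), a gene's UMIs scaled to the same total in each library, summed over a library's cells. They are shares of the RNA captured, and high pigment cells also had fewer UMIs (median 12557 against 16019.5). Molecules were tagged at their 3′ end, so levels were not divided by transcript length. Intervals in brackets are exact 95% intervals for counting error only. How far repeat cultures, sorts or preparations would differ is not in them, nor, for CPM and ratios, how far cells differ. The 8 melanocyte markers were all detected (summed to 11654 CPM in low pigment and 15202 CPM in high pigment cells). The leukocyte markers summed to 11.1 and 8.11 CPM over 16 genes, and Ptprc, the common leukocyte antigen, had 1 UMI in all. Of the leukocyte markers 9 had over 3 UMIs in a library and 4 had none in either. Fcer1g had 112 UMIs in low pigment and 128 in high pigment cells, Itgam 87 and 4, Coro1a 50 and 28, and Cd79a 48 and 17. The 7 endothelial markers summed to 26.5 CPM in low pigment and 5.96 CPM in high pigment cells. Most of this was Pecam1 in low pigment, and Pecam1 and Vwf in high pigment. Pecam1 had 22.4 and 2.81 CPM, and Vwf 3.82 and 2.98 CPM. What part such differences have in the results below was not tested. The 2 libraries shared 2 barcode sequences.

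MHC class I molecules show fragments of a cell's own proteins to CD8 T cells. The proteasome cuts proteins into peptides, and its interferon-inducible subunits Psmb8, Psmb9 and Psmb10 take the places of constitutive ones. The transporter Tap1-Tap2 carries the peptides into the endoplasmic reticulum, where tapasin (Tapbp) helps to load them onto a heavy chain, H2-K1 or H2-D1, paired with beta-2-microglobulin (B2m). Nlrc5 is the class I transactivator, which works through a complex of RFX, CREB and NF-Y factors at these promoters. Interferons raise the whole set through IRF and other factors, and B16 is known for low class I levels that interferon gamma can restore.

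Of the 10 genes, 7 lie on mouse chromosome 17 in the MHC region, within 1351601 base pairs. By GENCODE release M21 on mm10, the build of the data, H2-K1 is at chr17:33996017-34000347 on the minus strand and H2-D1 at chr17:35262730-35267499 on the plus strand. B2m is on chromosome 2 (122147686 to 122153083). Psmb10 (105935735 to 105938444) and Nlrc5 (94434356 to 94527272) are on chromosome 8. Promoter sequence of the 2 heavy chain genes is shown because these genes differed most between the libraries among the well-detected ones. A stretch of 30 bases there is nearly the same in both, with 1 base that differs. Capitals mark an NF-kB type run and a match to GAANNGAAA, an interferon response type motif that here lies on the opposite strand and was added to the search after the sequences were seen. The H2-K1 stretch is at chr17:34000429-34000458 on the minus strand, and the H2-D1 stretch is at chr17:35262923-35262952 on the plus strand (GRCm38.p6, sequences from RefSeq).
H2-K1: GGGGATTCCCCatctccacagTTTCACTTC
H2-D1: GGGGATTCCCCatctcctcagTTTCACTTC

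The 200 bases before the RefSeq starts of H2-K1 (chr17:34000348-34000547, minus strand) and B2m (chr2:122147487-122147686, plus strand) follow, each 5′ to 3′ on the gene's strand. For H2-D1 only the shorter stretch is given, since GENCODE places its window inside an untranslated exon of a longer transcript. Capitals mark every match, on either strand, to GAANNGAAA or to GAAA, any 2 bases and GAAA again (short and long interferon response type), GGG and CC with 5 bases of any kind between them (NF-kB type), TGACG (core of a cyclic AMP response element) and ATTGG (Y box).
H2-K1: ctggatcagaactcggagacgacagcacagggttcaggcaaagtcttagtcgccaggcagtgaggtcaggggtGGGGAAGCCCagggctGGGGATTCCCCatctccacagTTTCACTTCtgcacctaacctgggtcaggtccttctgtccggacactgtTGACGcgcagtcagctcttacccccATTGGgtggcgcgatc
B2m: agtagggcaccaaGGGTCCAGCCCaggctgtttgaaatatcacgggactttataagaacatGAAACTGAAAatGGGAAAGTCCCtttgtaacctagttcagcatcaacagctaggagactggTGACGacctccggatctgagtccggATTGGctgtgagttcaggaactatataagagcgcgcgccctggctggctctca

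H2-K1 and H2-D1 each held GAANNGAAA once, TGACG once and ATTGG in either direction at least once. B2m held the long interferon response motif, which the other 2 lacked. Tap1 and Psmb9 held TGACG and NF-kB type matches, Psmb9 also ATTGG, and neither held an interferon response type match. Tapbp held ATTGG alone, and Psmb8 and Psmb10 held none of the motifs. Over 32851 RefSeq promoter windows of the same length, 4.995% held GAANNGAAA, 2.27% the long form, 41.4% the NF-kB type, 15.7% TGACG and 29.3% ATTGG. NF-kB type matches overlap each other and can count on both strands, and ATTGG was read as CCAAT on the other strand. The AP-1 motif TGANTCA, held by 5.48% of windows, was in none of the 8 members' windows, and Tap2 and Nlrc5 had no window in the table. A match is a description of letters and does not show that a factor binds.

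RNA of the heavy chain genes was lower in high pigment cells, and that of their partner B2m differed little. H2-K1 had 32.9 CPM in low pigment cells (1066 UMIs) and 15.9 CPM in high pigment cells (458 UMIs), a 2.07-fold lower level in the latter (1.85–2.31). H2-D1 had 61.5 CPM (1996 UMIs) in low pigment and 37.8 CPM (1091 UMIs) in high pigment, 1.63-fold lower (1.51–1.75). B2m, the light chain, was the most abundant of the 10 with 253 CPM in low pigment and 241 CPM in high pigment, a ratio of 0.949 (0.919–0.980). Both heavy chain differences lay far outside their counting error, and that of B2m was small and just outside it.
Nlrc5, the transactivator, had 52 UMIs (1.60 CPM) in low pigment and 22 UMIs (0.763 CPM) in high pigment cells, a ratio of 0.476 (0.275–0.797). With so few molecules the size of that difference is poorly bounded.

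Taken singly, the peptide supply genes were close to level or too weak to tell. Tapbp had 14.8 CPM in low pigment cells and 13.8 CPM in high pigment cells (ratio 0.934, 0.816–1.07), and Psmb10 had 25.7 and 25.8 CPM (ratio 1.01, 0.910–1.11). Tap1, an ATP-driven subunit of the peptide transporter, had 107 and 72 UMIs (3.30 and 2.50 CPM, ratio 0.757, 0.553–1.03). Its partner Tap2 had 37 and 23 UMIs (1.14 and 0.797 CPM, ratio 0.699, 0.397–1.21). The immunoproteasome genes Psmb8 (36 and 26 UMIs, ratio 0.812, 0.471–1.38) and Psmb9 (34 and 22 UMIs, ratio 0.728, 0.405–1.28) were as rare. For these 4 the interval held both no difference and a level 1.5-fold lower, so the counts decide between neither. The 4 genes were also summed, after their values were seen. The low pigment library had 214 UMIs and the high pigment library 143, a ratio of 0.751 with an interval below 1 (0.604–0.933). The limit of detection, taken as 3 UMIs per library, was 0.0925 CPM in low pigment and 0.104 CPM in high pigment, and all 10 genes lay above it in both libraries.

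**Figure D1:**
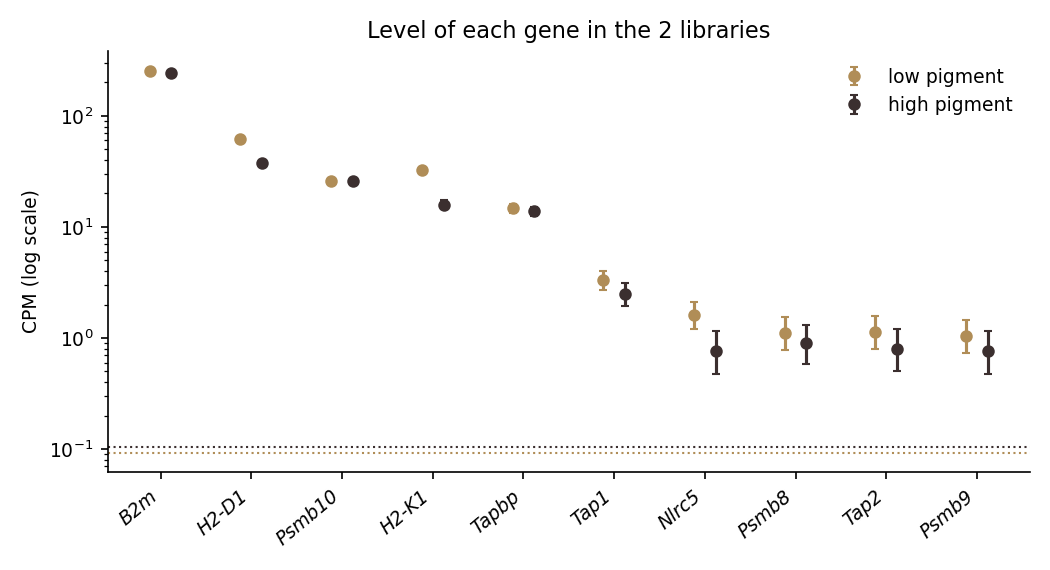
CPM (log scale) of each of the 10 genes in the low pigment and high pigment library, in order of mean level. Points are library sums, bars exact 95% Poisson intervals, and dotted lines the level of 3 UMIs in each library. H2-D1 (61.5 against 37.8 CPM) and H2-K1 (32.9 against 15.9 CPM) stand apart between libraries, while B2m, Psmb10 and Tapbp nearly coincide.

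Counted by size, 3 of the 10 genes (H2-K1, H2-D1 and Nlrc5) had a high pigment level lower by 1.5-fold or more, and 0 were higher by that size. Among the 12754 genes with a mean of at least 0.5 CPM, 16.5% were lower by that size and 5.98% higher. A mean of at least 10 CPM, the level at which a gene counts as measured, left 5 of the 10, of which 2 were lower by that size, against 8.08% of the 7849 measured genes, and 0 were higher, against 3.25%. Those 5 had a median log2 ratio of -0.10, and the 7849 genes had -0.08. The median of the 10 was -0.43, against -0.12 for the 12754 genes. Of genes between 0.5 and 10 CPM, where the other 5 members lie, 29.9% were at least 1.5-fold lower and 10.4% at least 1.5-fold higher, so 1 of 5 there does not stand out.

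In order of level, the low pigment library had B2m, H2-D1, H2-K1, Psmb10, Tapbp, Tap1, and then Nlrc5, Tap2, Psmb8 and Psmb9. Those last 4 had between 1.05 and 1.60 CPM, and their intervals overlapped. In the high pigment library Psmb10 (25.8 CPM) stood above H2-K1 (15.9 CPM), and Tapbp (13.8 CPM) came close behind H2-K1. The last 4 had between 0.763 and 0.901 CPM there. Per cell, H2-K1 had 56.1 UMIs per 100 low pigment cells and 21.4 per 100 high pigment cells, and H2-D1 had 105 and 51.1.

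Exact copies of a sequence elsewhere can cost a gene its reads, so the 3′ ends were compared. Of the 50-base subsequences in the last 500 bases of the coding transcripts, 9.60% of those of H2-K1 and 8.92% of those of H2-D1 occurred in another gene of the matrix, each most often in the other one. The share was 4.83% for Tapbp, from Zbtb22 on the same strand, 2.75% for Tap1, and 0 for the other 6. These are shares of sequence and not of UMIs, so how much of the H2-K1 and H2-D1 counts is uncertain is not known.

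The authors' cell table gives each cell a cell cycle phase. It placed 749 low pigment cells in G1, 705 in S and 446 in G2M, and 708, 479 and 949 high pigment cells. H2-K1 was lower in high pigment cells within every phase. In G1 it had 32.2 CPM in low pigment and 18.0 CPM in high pigment cells (ratio 0.558, 0.459–0.676). In S it had 31.9 and 14.2 CPM (0.445, 0.348–0.563), and in G2M 34.8 and 15.3 CPM (0.439, 0.367–0.523). The 3 low pigment values and the 3 high pigment values did not overlap, and within a library the intervals of the 3 phases overlapped.

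H2-D1 followed in G1 with 70.8 CPM in low pigment and 37.6 CPM in high pigment cells (ratio 0.532, 0.465–0.606). In G2M it had 56.9 and 36.6 CPM (0.643, 0.568–0.728). In S the values were 56.9 and 41.0 CPM, a ratio of 0.720 (0.621–0.833) that falls short of 1.5-fold. Low pigment G1 cells had the highest H2-D1 level of the 6 groups (65.8–75.9). They also had the highest B2m level, with 282 CPM against 238 CPM in S and 242 CPM in G2M, while high pigment cells had 255, 233 and 235 CPM. Tapbp had a like order in low pigment cells, with 19.4 CPM in G1, 12.3 CPM in S and 12.6 CPM in G2M, so that its ratio was 0.789 in G1 (0.630–0.985), 1.10 in S (0.831–1.45) and 1.03 in G2M (0.812–1.31). Whether phases differ was not tested, since their cells come from the same library.

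Psmb10 stayed near level, with ratios of 1.14, 0.970 and 1.01 in G1, S and G2M, each interval holding 1. Nlrc5 had 10 UMIs in G1 cells of each library, a ratio of 1.252 (0.468–3.35), but 22 against 4 in S (0.373, 0.0935–1.10) and 20 against 8 in G2M (0.259, 0.0988–0.614). By these counts the Nlrc5 gap lay in cells called S and G2M. But its G1 interval also held the ratio over all cells (0.476), and its S interval held 1, so the phases cannot be told apart. Tap1 had a ratio of 0.974 in G1, 0.955 in S and 0.556 in G2M (0.308–0.994). Psmb9 was at 10 and 2 UMIs in G1, too few for a bound (0.0267–1.18). Tap1, Tap2, Psmb8 and Psmb9 summed had a ratio of 0.771 in G1 (0.526–1.12), 0.987 in S (0.652–1.47) and 0.648 in G2M (0.441–0.952). Counted by size, 4 of 10 genes were at least 1.5-fold lower in G1, 2 in S and 5 in G2M, against 17.7%, 17.8% and 18.8% of genes with at least 0.5 CPM. Of measured genes, 9.54%, 8.37% and 9.72% were lower by that size in the 3 phases, and 3.59%, 4.18% and 3.53% were higher. H2-K1 was among them in every phase, and no member was at least 1.5-fold higher in any.

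**Figure D2:**
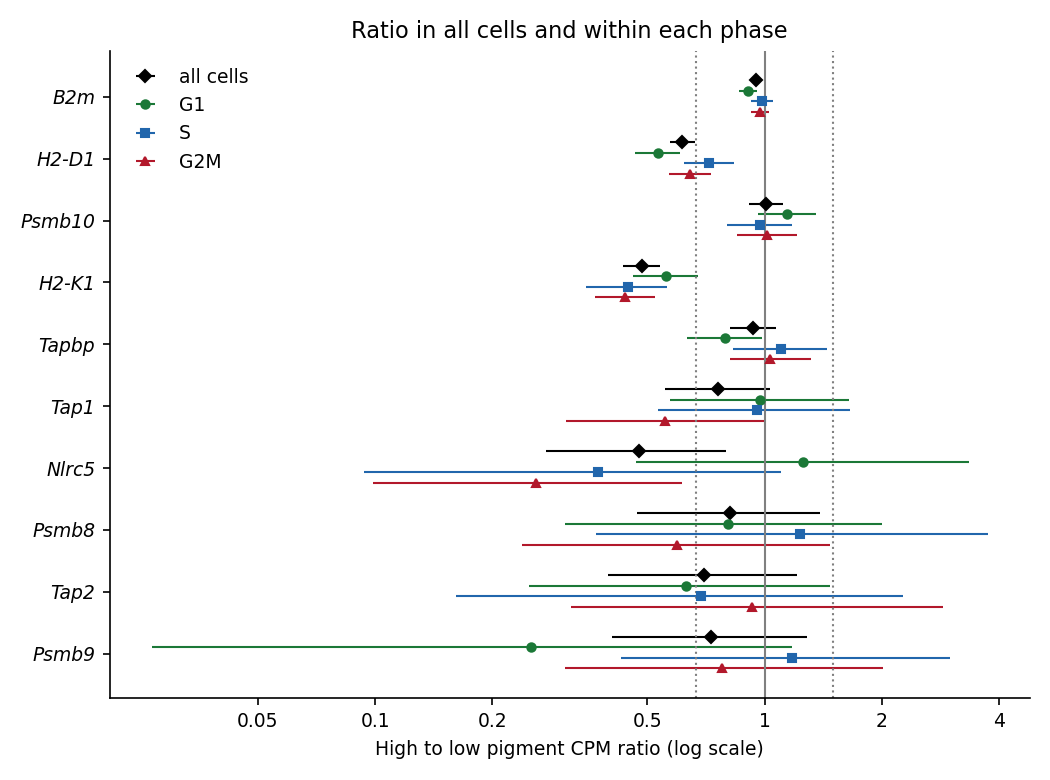
Ratio of high to low pigment CPM (log scale) for each gene in all cells and in cells called G1, S and G2M, with exact 95% intervals. The solid line marks a ratio of 1 and the dotted lines 1.5-fold either way. H2-K1 and H2-D1 lie left of 1 in every phase, and the 5 weakest genes have the widest intervals.

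Since deeper cells show a gene more often, each cell was thinned at random to 7500 UMIs before cells with a UMI were counted. H2-K1 was seen in 22.7% of low pigment cells (20.8–24.6) and in 10.7% of high pigment cells (9.40–12.1). Without thinning the shares were 38.7% and 17.6%. H2-D1 was seen in 36.6% (34.5–38.8) and 24.6% (22.8–26.5), or 62.5% and 38.2% without thinning. Both gaps are wider than the counting error and match the order of the CPM values.

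B2m was seen in 81.5% and 80.0% of thinned cells (95.8% and 91.1% without thinning), Psmb10 in 17.9% and 16.3% (33.6% and 27.5%), and Tapbp in 11.3% and 10.2% (20.9% and 16.5%). Tap1 was seen in 2.42% and 1.69%, or in 5.05% and 3.14% of unthinned cells. The rest were at or below about 1% after thinning: Nlrc5 in 20 low pigment and 11 high pigment cells, Tap2 in 19 and 12, Psmb9 in 15 and 8, and Psmb8 in 13 and 12. The limit of detection, taken as 3 cells of a library, was 0.158% of low pigment and 0.140% of high pigment cells. The median UMI count in unthinned cells was 16019.5 in low pigment and 12557 in high pigment. Both libraries hold a single cell type that expresses class I genes, so the share that free RNA alone would give was not estimated.

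**Figure D3:**
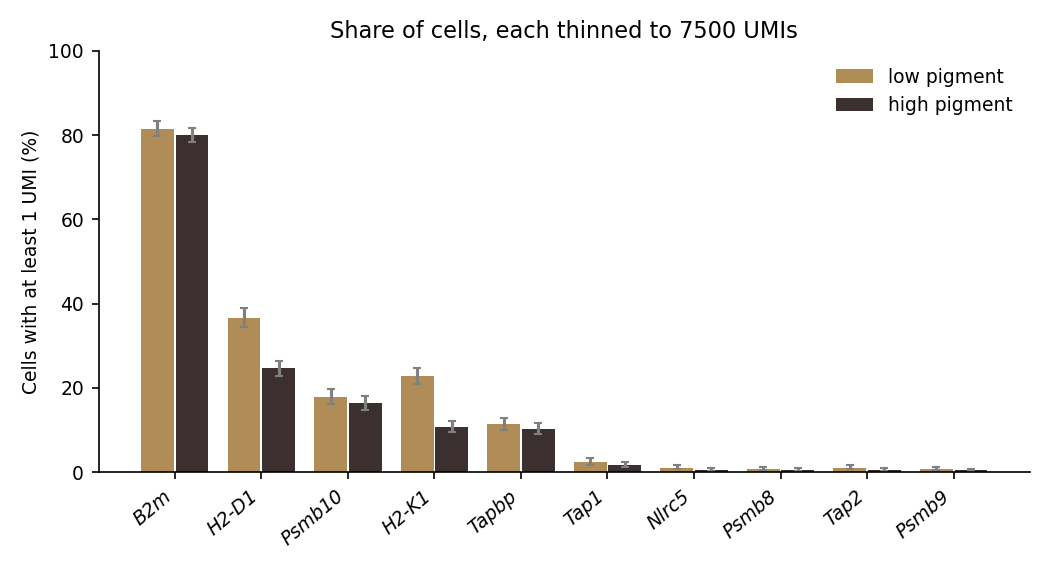
Percent of cells with at least 1 UMI of each gene after thinning every cell to 7500 UMIs, with exact 95% Clopper-Pearson intervals. H2-K1 (22.7% against 10.7%) and H2-D1 (36.6% against 24.6%) differ between libraries, B2m is seen in about 80% of cells in both, and the 5 genes on the right in under 3%.

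The heavy chain RNA was spread thinly over cells. After thinning, the highest H2-K1 count in any cell was 6 in low pigment and 3 in high pigment, and that of H2-D1 was 6 and 5. The ratio of variance to mean was 1.09 and 1.17 for H2-K1 and 1.14 and 1.10 for H2-D1, where pure counting gives 1. For B2m it was 1.57 and 1.36, with up to 15 and 12 UMIs in a cell.

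Across cells of a library, the 10 pairs of measured members had Pearson correlations of log counts between -0.01 and 0.11 in low pigment and between -0.02 and 0.08 in high pigment, over 1900 and 2136 thinned cells. In counts this sparse, values of that size show neither that members vary together across cells nor that they do not. H2-D1 was seen in 38.5% of low pigment cells with H2-K1 (33.9–43.3) and in 36.1% of those without (33.6–38.6). In high pigment it was seen in 33.3% (27.2–39.9) and 23.5% (21.6–25.5), and these 2 intervals did not overlap. For H2-K1 and H2-D1 none of 3047 genes reached a correlation of 0.1 in both libraries, the rule set for a like gene. Below it, H2-D1 came closest to Ifitm3 (0.13 in low pigment, 0.05 in high pigment) and Bst2 (0.11 and 0.07). H2-K1 came closest to Higd1a (0.04 and 0.14), and Bst2 (0.09 and 0.04) was among its nearest 5. B2m was searched the same way after its values were seen, and 5 genes reached 0.1 in both libraries. It came closest to Ifitm3 (0.28 in low pigment, 0.21 in high pigment), Ifi27 (0.26 and 0.19) and Bst2 (0.22 and 0.20), which are known interferon-induced genes. Ptgds (0.15 and 0.11) came next. B2m had more UMIs per cell than H2-K1 and H2-D1, so its correlations cannot be compared with theirs. These cells share library and depth.

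The authors' 4 clusters were made from all genes of these cells, so levels across them are a description. Cluster 0 (1520 high and 36 low pigment cells) had 14.6 CPM of H2-K1 in its high pigment cells, and cluster 3 (523 high and 19 low) had 17.7 CPM. Cluster 1 (1023 low and 48 high pigment cells) had 32.2 CPM in its low pigment cells, and cluster 2 (822 low and 45 high) had 34.1 CPM. H2-D1 had 36.5 and 40.6 CPM in clusters 0 and 3, and 69.0 and 55.7 CPM in clusters 1 and 2, in the same cells. The 2 low pigment clusters thus had higher heavy chain levels than the 2 high pigment ones. B2m had 277 CPM in cluster 1 and between 233 and 240 CPM in the other 3. Nlrc5 had 2.12 CPM in cluster 2 (34 UMIs, 1.47–2.96) and 1.10 CPM in cluster 1 (17 UMIs, 0.639–1.76).

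A few cells sat in a cluster of the other library. The 48 high pigment cells of cluster 1 had 26.8 CPM of H2-K1 (14.7–45.0) and 59.4 CPM of H2-D1 (40.3–84.3), and the 45 of cluster 2 had 39.1 (24.2–59.8) and 42.9 CPM (27.2–64.3). The 36 low pigment cells of cluster 0 had 21.3 CPM of H2-K1 (11.4–36.5) and 31.2 CPM of H2-D1 (18.8–48.7). For both genes the intervals of these 3 groups held the level of the main cells of their cluster. They left out the level of their own library for H2-D1 in clusters 0 and 1 and for H2-K1 in cluster 2. The 19 low pigment cells of cluster 3 bound neither gene. B2m went past either level in the high pigment cells of cluster 1, with 391 CPM (339–448), and of cluster 2, with 302 CPM (257–352).

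**Figure D4:**
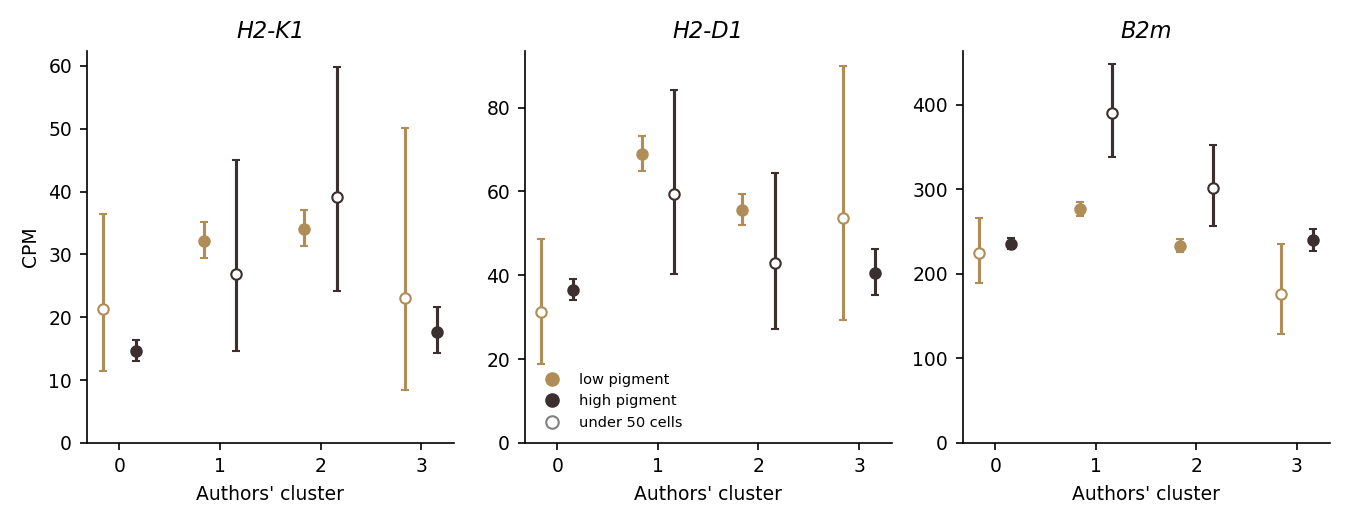
CPM of H2-K1, H2-D1 and B2m by the authors' cluster and library, with exact 95% Poisson intervals. Filled points are groups of at least 500 cells and open points groups of under 50. In filled points H2-K1 is at 14.6 and 17.7 CPM in clusters 0 and 3 and at 32.2 and 34.1 CPM in clusters 1 and 2.

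The other genes of the pathway came from 7 lists with 135 entries, called by size where the log2 ratio was beyond 0.32 in either direction, a limit that 23.4% of measured genes passed downward and 10.9% upward. Of 8 measured peptide loading and endoplasmic reticulum chaperone genes, 4 were lower, 1 higher and 3 neither, with a median log2 ratio of -0.29. Hspa5, a general chaperone, had 1130 CPM in low pigment and 725 CPM in high pigment cells, and the pairs of CPM that follow keep that order. Calr (calreticulin, which holds the heavy chain for loading) had 737 and 505 CPM and the disulfide isomerase Pdia4 185 and 129 CPM. Sec61g, a subunit of the translocon, had 470 and 629 CPM (ratio 1.34), Sec61b a ratio of 1.21 and Sec61a1 a ratio of 0.854.

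Proteasome genes were nearly level. Of 19 measured subunits and activators 1 was lower, 0 were higher and 18 neither, with a median of -0.04. That gene was Psmb4, with 240 and 175 CPM, while Psmb7 had a ratio of 0.805 and Psmb5, the constitutive counterpart of Psmb8, a ratio of 0.851. Pomp, an assembly factor, had a ratio of 1.19, Psma4 of 1.17 and Psma6 of 1.13. Of 7 measured peptidases, 2 were lower and 5 neither, with a median of -0.11. Lap3, leucine aminopeptidase, had 77.3 and 45.8 CPM and Thop1, which degrades peptides, 25.7 and 17.6 CPM. Lnpep, Tpp2, Ide and Npepps had ratios of 0.889, 0.955, 1.09 and 1.14.

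Of the other class I and class I-like genes, 22 of 23 were in the matrix, 8 of these had at most 3 UMIs in each library, and Ulbp1 alone was measured. Ulbp1, a ligand of the natural killer receptor NKG2D, had 17.3 and 10.0 CPM (1.73-fold lower in high pigment). Named after their values were seen, the non-classical gene H2-T23 (Qa-1) had 73 and 14 UMIs, 4.64-fold lower (2.60–8.90), and H2-Q4 had 127 and 65 UMIs, 1.74-fold lower (1.28–2.38). H2-T22 had 303 and 236 UMIs with a ratio of 0.876 (0.736–1.04). Hfe, Fcgrt and Azgp1 had ratios of 0.948, 0.906 and 1.02, and each interval held 1. With a mean of at least 2 CPM, which leaves out H2-T23, 3 of 9 were lower and 0 higher, with a median of -0.17. Among all genes at that level, 29.1% were lower and 12.2% higher by the log2 limit of 0.32. Of 10 class II genes 0 were measured and 4 had at most 3 UMIs in each library, and Ciita, their transactivator, had 8 and 6 UMIs. The most abundant were H2-DMb1 (112 and 104 UMIs, 3.45 and 3.61 CPM) and H2-DMa (59 and 34 UMIs), which encode a peptide exchange factor for class II.

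Of 22 measured genes that regulate class I or carry interferon signals, 9 were lower, 1 was higher and 12 were neither, with a median of -0.20. The smallest ratios were those of the cytokine feedback inhibitors Socs3 (19.1 and 2.84 CPM, 6.74-fold lower) and Socs1 (25.03 and 4.02 CPM, 6.23-fold lower). Rfxap, a subunit of the RFX complex, was the 1 gene higher, with 33.0 and 42.5 CPM (ratio 1.29), and Eed and Creb1 had ratios of 1.14 and 1.04. The other 8 regulators were too weak to count as measured and are named after their values were seen. Irf1, an interferon-induced activator of class I promoters, had 288 and 43 UMIs, 5.96-fold lower (4.31–8.41). Stat2 and Irf9, which act in the type I interferon complex, were 4.34-fold (239 and 49 UMIs) and 2.71-fold lower (347 and 114 UMIs). Rfx5 was 2.26-fold lower (122 and 48 UMIs, 1.61–3.23), while Rfxank had a ratio of 0.837 (0.683–1.02). The receptor gene Ifngr1 had a ratio of 0.897 (0.743–1.08), the kinase gene Tyk2 of 1.01 (0.801–1.28) and Irf8, with 15 and 5 UMIs, of 0.375 (0.107–1.08).

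Within phases, Irf1 was 4.64-, 8.87- and 7.29-fold lower in G1, S and G2M, and Stat2 3.99-, 5.11- and 4.75-fold. The intervals of all 6 ratios lay below 1. Rfx5 had 0.282 in G1 (0.153–0.490), 0.714 in S (0.276–1.65) and 0.556 in G2M (0.308–0.994). So Irf1 and Stat2 were lower in high pigment cells at each phase, while for Rfx5 the S phase interval held 1.

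Of 10 measured interferon-induced genes, 4 were lower, 1 was higher and 5 were neither, with a median of -0.25. Ifit2 had 14.0 and 7.87 CPM, the RNA sensor gene Ddx58 21.95 and 14.9 CPM, and the antiviral gene Rsad2 28.5 and 20.1 CPM. Ifitm3, a membrane restriction factor, was the gene that was higher, with 220 and 287 CPM, and Isg15 and Bst2 had ratios of 0.981 and 0.936. With a mean of at least 2 CPM, 13 of 22 were lower and 2 higher, with a median of -0.48. Of all genes at that level, 29.1% were lower and 12.2% higher by the same limit. Cd274, which encodes PD-L1 and was named after its values were seen, had 190 and 90 UMIs, 1.88-fold lower (1.45–2.44).

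**Figure D5:**
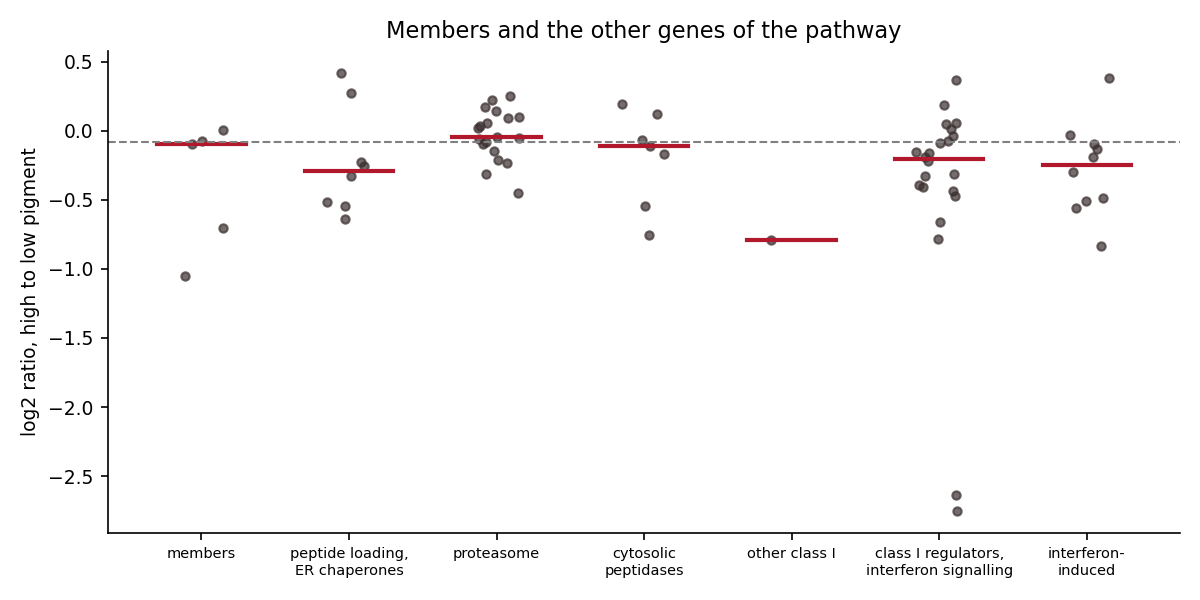
log2 ratio of high to low pigment CPM for every measured gene of the members and of 6 pathway lists, with 1 point per gene. Red bars are list medians and the dashed line is the median of all 7849 measured genes (-0.08). The 2 lowest points are Socs3 and Socs1, and the proteasome genes lie close to the dashed line.

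Other features of the libraries moved with these differences. A set of 15 immediate early genes, which respond within minutes to growth factors and to handling, summed to 2528 CPM in low pigment cells and 555 CPM in high pigment cells. Socs3 and Irf1 are also known to respond early. Within each library, cells were split by their immediate early UMIs into 3 groups of about equal size. The set and the split were not planned in advance. In low pigment H2-K1 had 33.9, 31.8 and 39.8 CPM from the lowest to the highest group, and in high pigment 12.7, 15.7 and 20.8 CPM. The lowest low pigment group, with a median of 12 such UMIs per cell, had more H2-K1 (28.8–39.5) than the highest high pigment group, with a median of 8 (17.1–25.03). H2-D1 had 60.8, 67.6 and 62.6 CPM against 38.8, 37.1 and 41.8 CPM. Within high pigment the highest group also had more H2-K1 than the lowest (9.89–16.1). The groups of the 2 libraries are not matched for immediate early counts, and what part these genes have in the H2-K1, H2-D1, Irf1 and Socs differences was not tested.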

How the data were processed

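The authors deposited 1 matrix of UMI counts by gene and barcode, made with Cell Ranger 6.1.2 on mm10 per the submitters' processing notes and the file headers. The sources used here do not give whether aggregation equalised depth or how reads matching several genes were treated. The authors' deposited cell table gives counts of UMIs per cell, the percent of mitochondrial UMIs, and each cell's sort, phase and cluster. Its 4036 cells, of 5818 barcodes, were used, and the sort name matched the barcode's library number in all of them.

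Counts were summed per library and scaled to CPM in Python 3.11.15 with scipy 1.17.1. CPM have exact Poisson, ratios exact conditional binomial and shares Clopper-Pearson 95% intervals. The ratio and thinning code was tested on simulated data. Doublets marked by Scrublet in scanpy 1.11.5 (5 low and 15 high pigment cells) were kept. Positions come from GENCODE M21 by gene ID, promoters from RefSeq (GRCm38.p6, 8 of 10 genes).

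All 10 members are named, with up to 3 measured genes of largest and 3 of smallest ratio per list. Some genes this rule names are not reported here. Of the list entries, 4 symbols were not matched. The members and lists were chosen with earlier results of these data known. Alternatives covered scaling, cells, depth, phase and filters.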

Additional observations from a re-analysis of the deposited data

How the results depend on the processing

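The number of members at least 1.5-fold lower in high pigment was 3 and lay between 2 (S cells) and 5 under the 11 alternatives. It was 5 with cells thinned to 7500 UMIs and 5 in G2M cells, where the added genes (Tap2 and Psmb9 after thinning, Tap1 and Psmb8 in G2M) are all among the 5 not measured. H2-K1 kept at least 1.5-fold in 11 of 11 alternatives (ratio 0.439 to 0.558) and H2-D1 in 10 of 11 (0.532 to 0.720, S cells excepted). Nlrc5 turned to 1.252 in G1 cells. B2m lay between 0.906 and 1.00, and Psmb10 between 0.927 and 1.14. Of 67 measured pathway genes 21 were lower by 0.32 or more in log2. With a mean of 2 CPM this became 38 of 97, and with no filter 55 of 123, while the share of all genes past that limit went from 23.4% to 29.1% and 43.9%. Genes 1.5-fold lower numbered 634 among all measured, 1360 with a mean of 2 CPM, 2102 with 0.5 CPM (added after the data were seen) and 6756 with no filter. Scaling so that the median measured gene has a ratio of 1 (a shift of 0.08 in log2) gave 462 lower and 357 higher genes, 56.4% lower, against 634 and 255, or 71.3%. Members seen in at least 10% of cells in both libraries numbered 5, and 3 after thinning to 5000 UMIs. Pairs of members correlated at 0.1 or more in both libraries numbered 0, and 1 without thinning. With scanpy phase calls, 12 of 30 gene and phase combinations were 1.5-fold lower, against 11, but these were not all the same. H2-K1 had ratios of 0.631, 0.497 and 0.458 in G1, S and G2M, and H2-D1 0.567, 0.872 and 0.625. Tap1 (0.817) and Psmb8 (0.757) in G2M and Tap2 in G1 (0.820) no longer passed. Tap2 (0.411), Psmb8 (0.657) and Psmb9 (0.598) in S and Psmb8 in G1 (0.559) passed instead. All of these changes are in genes not measured. No paired analysis was possible because each group has 1 library.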

Other observations

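Cells of each library were split into 3 groups of about equal size by their UMIs of 5 melanin genes after thinning, a split chosen after the data were seen. The split is by RNA of these genes and not by pigment. In low pigment, H2-D1 had 55.3 CPM (48.8–62.4) in the group with the fewest melanin gene UMIs and 70.1 CPM (62.8–78.1) in the group with the most. In high pigment it had 32.4 (27.7–37.6) and 45.5 CPM (39.96–51.6). H2-K1 had 29.0 (24.4–34.3) and 41.1 CPM (35.5–47.3) in low pigment, and 15.0 (11.9–18.6) and 17.6 CPM (14.2–21.5) in high pigment. B2m had 238 and 299 CPM in low pigment and 234 and 260 CPM in high pigment. So the cells with the most melanin gene UMIs had more H2-D1 RNA than those with the fewest in both libraries. The intervals of these outer groups did not overlap. The high pigment library had the higher melanin gene sum (14003 against 10904 CPM) and less H2-D1. That sum was carried mostly by Dct (5856 CPM in low pigment and 8011 CPM in high pigment). Mlana (1658 and 2299 CPM) and Tyrp1 (1832 and 2286 CPM) were also higher in high pigment. Pmel had a ratio of 0.898 and Tyr of 0.971. For H2-K1 and B2m the intervals of the outer groups were apart in low pigment and overlapped in high pigment. Phase was not matched between the groups.

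Barcodes outside the authors' table also carried class I RNA. The 499 low pigment barcodes outside it with under 10% mitochondrial UMIs had 15.3 CPM of H2-K1 (15 UMIs, 8.59–25.3). They had 29.7 CPM of H2-D1 (29 UMIs, 19.9–42.6) and 257 CPM of B2m. Both heavy chain levels were below those in the low pigment cells of the table. The 541 such high pigment barcodes had 23.1 CPM of H2-K1 (42 UMIs, 16.6–31.2) and 43.4 CPM of H2-D1 (34.4–54.1). The 155 high pigment barcodes with at least 10% mitochondrial UMIs had 43.9 CPM of H2-K1 (30 UMIs, 29.6–62.6), above the 15.9 CPM of the high pigment cells of the table. The 587 such low pigment barcodes had 29.4 CPM of H2-K1 (48 UMIs, 21.7–39.0). The intervals of the 2 libraries overlapped at H2-K1 in both kinds of barcode. At H2-D1 the barcodes rich in mitochondrial UMIs had 55.2 CPM in low pigment (44.4–67.8) and 51.2 CPM in high pigment (35.7–71.2).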
